A study of Mus musculus with 12 samples.

Results

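Splicing factors were taken as the probes with a single gene symbol of the Srsf, Sfrs, Tra2, Hnrnp, Hnrp, Snrp, Lsm, Sf3a, Sf3b, Prpf or U2af families. This choice by name gave 140 of the 28704 features on the array, for 65 of its 10225 genes with a single symbol. By symbol they comprised 9 SR proteins (Srsf and Tra2), 18 hnRNPs, 20 genes of the snRNP core (9 Snrp and 11 Lsm genes) and 18 genes of SF3, Prpf and U2AF. The rule reads symbols and no measured value, though the families were picked with earlier results known. Another 12 probes listed a splicing factor together with other symbols and were not named.

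Pre-mRNA splicing removes introns and joins exons. The spliceosome is built from small nuclear ribonucleoproteins (snRNPs), in which rings of Sm or Lsm proteins hold a small nuclear RNA, and U2AF and the SF3 complexes mark the end of the intron and its branch point. Several Prpf proteins take part in the later rearrangements. SR proteins, which in general favour the use of an exon, and hnRNPs, which often oppose it, act on which sites are chosen.

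The cells were MC3T3-E1, a clonal osteoblast-like line from mouse calvaria, so every sample came from 1 line. Total RNA was measured in 6 control samples, kept without flow in the same apparatus, and in 6 shear samples, exposed to pulsatile fluid flow. Average shear stress was 5 dyn per square centimetre at 1 Hz for 5 h, and cells of both groups were grown in 5% serum and held in 1% serum in the flow apparatus. Nothing in the labels ties the 6 samples of a group to separate cultures, and p-values here reflect only sample-to-sample spread, part or all of it possibly technical. With bulk RNA, fewer cells of a type and less RNA per cell cannot be told apart.

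Each of 6 spotted arrays took 2 samples of 1 condition, labelled with Cy5 (odd replicate numbers) and Cy3 (even numbers). Replicates 1 and 2, 3 and 4, and 5 and 6 were treated as array partners, which was inferred from dyes and numbers. Over features, these pairs correlated at 0.953 to 0.982, against 0.871 to 0.935 for other samples of the same group. A feature had a value in 18434 (control 4) to 23790 (control 1) cases per sample, and 113 to 119 splicing factor probes did. The array of controls 3 and 4 had the fewest. Its controls stood apart from the others in a number of splicing factors, and their values are given for some of these. Of 15 osteoblast markers 10 were tested, with control means from -1.65 (Msx2) to 5.48 (Sparc) on the log2 scale. Col1a2 was at 4.40 and Alpl at -1.01, while Runx2, Sp7, Bglap, Ibsp and Spp1 were not analysed here. Lox was higher in shear by 2.10 ± 0.42 (SE; limma, adjusted p = 0.0255) and Dlx5 fell by 0.97 ± 0.23 (limma, adjusted p = 0.0492). No marker of macrophages, endothelium, adipocytes, chondrocytes or muscle passed the test. Their summed linear levels overlapped between groups, for endothelium 4.59 to 7.21 in controls and 5.99 to 8.02 in shear, and their part in the results was not tested.

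Shear was compared with control to see whether 5 h of flow altered the transcripts of the splicing machinery. Values are log2 of a spot's net signal over the median of its block on the array, and a difference of 1 is a doubling. At an adjusted p under 0.05 over all features (limma), 2 of the 59 splicing factor genes tested were higher in shear, Srsf2 and Hnrnpa3, and 0 were lower. That is 3.39% of the genes, beside 1.49% of all 15603 features called in either direction, 1.28% called higher (200) and 0.205% called lower (32). Before adjustment, 9 of the 59 had a p under 0.05 in the higher direction (15.3%, against 10.4% of all features) and 1 in the lower (1.69%, against 3.39%). All 6 shear samples lay above all 6 controls in 4 genes, Srsf2, Hnrnpa3, Hnrnph2 and Sf3a1 (6.78%, against 5.76% of all features). No splicing factor had all its shear samples below all controls, as did 1.6% of all features.

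Small positive differences were frequent among the splicing factors. The estimated change was above 0 in 49 of the 59 genes (83.1%), against 61% of all features, and its median was 0.25 against 0.11. Relative to that median of all features, 38 of the 59 (64.4%) lay above it. The count above 0 moved with the scaling of the samples. When each sample was centred on the features measured in all 12 samples, the median of all features moved to -0.017 and 38 genes were above 0 (64.4%, against 48.3% of all features), with 40 above that median. Under quantile normalization 41 genes were above 0 (69.5%, against 59.3%) and 34 above the median of all features. Under cyclic loess 35 were above 0 (59.3%, against 48.6%) and 35 above that median. Without the array of controls 3 and 4, 37 of 58 were above 0 (63.8%, against 51.3%) and 36 above the median. The share of larger differences was near the background or below it. A change above 0.5 was estimated for 11 genes (18.6%, against 17.4% of features) and one below -0.5 for 2 (3.39%, against 8.55%).

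**Figure D1:**
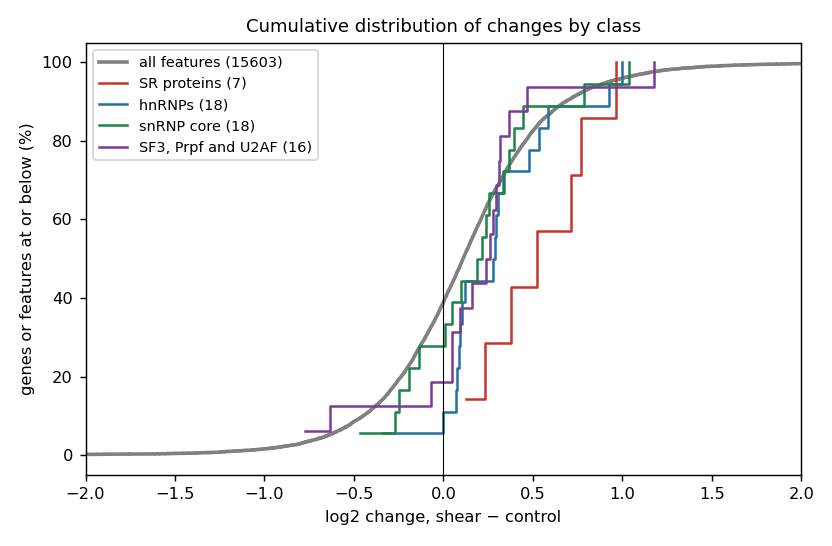
The share of genes or features (vertical axis, percent) whose log2 change, shear minus control, lies at or below the value on the horizontal axis, for each class and for all 15603 features. The curve of the 7 SR proteins has a median of 0.52 against 0.11 for all features and ends at 0.97, while every other curve reaches further right at its upper end.

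For 57 of the 65 genes, RefSeq promoter sequences (build GRCm38.p6) were matched by Entrez number, in 75 windows of 250 bases that end just before a transcription start. Those of 4 genes are shown because the results below turn on them: Srsf2 and Hnrnpa3 were called higher, every tested Srsf3 probe gave a change above 0 without passing the test, and every tested Sf3b1 probe gave one below 0. Srsf2 lies at chr11:116853095-116853344 (minus strand), Srsf3 at chr17:29032410-29032659 (plus strand), Hnrnpa3 at chr2:75659009-75659258 (plus strand) and Sf3b1 at chr1:55027479-55027728 (minus strand). They are written 5′ to 3′ along the gene's strand, with capitals for any of 6 motifs, searched on both strands: the GC box GGGCGG, the CCAAT box CCAAT, the E-box CACGTG, the ETS core CCGGAAG, the TATA box TATAAA and TGACGT, part of the cyclic AMP response element.
Srsf2: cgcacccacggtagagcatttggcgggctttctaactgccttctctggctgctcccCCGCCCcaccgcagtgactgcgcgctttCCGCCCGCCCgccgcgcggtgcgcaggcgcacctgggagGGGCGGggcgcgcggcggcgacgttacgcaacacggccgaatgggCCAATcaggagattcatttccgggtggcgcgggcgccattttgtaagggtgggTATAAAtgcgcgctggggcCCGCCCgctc
Srsf3: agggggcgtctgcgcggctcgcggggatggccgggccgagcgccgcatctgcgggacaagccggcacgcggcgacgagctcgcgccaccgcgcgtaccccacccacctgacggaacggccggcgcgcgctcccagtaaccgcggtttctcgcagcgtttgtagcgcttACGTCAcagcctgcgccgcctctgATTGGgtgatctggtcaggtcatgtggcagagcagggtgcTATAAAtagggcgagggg
Hnrnpa3: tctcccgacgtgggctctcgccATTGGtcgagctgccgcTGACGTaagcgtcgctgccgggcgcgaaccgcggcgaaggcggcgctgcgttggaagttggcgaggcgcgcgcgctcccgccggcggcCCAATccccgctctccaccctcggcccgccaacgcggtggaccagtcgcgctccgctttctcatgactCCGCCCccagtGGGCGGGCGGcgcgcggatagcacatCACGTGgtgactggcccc
Sf3b1: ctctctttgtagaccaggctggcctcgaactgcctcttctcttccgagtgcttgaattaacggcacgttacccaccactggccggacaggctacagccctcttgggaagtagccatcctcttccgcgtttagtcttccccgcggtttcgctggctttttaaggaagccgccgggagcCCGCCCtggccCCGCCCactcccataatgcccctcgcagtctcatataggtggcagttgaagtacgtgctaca
The Srsf2 window held 5 matches to the GC box, 1 CCAAT box and 1 TATA box. In the Srsf3 window there were 1 TATA box, 1 CCAAT box and 1 TGACGT, and no GC box. Hnrnpa3 had 3 GC boxes, 2 CCAAT boxes, 1 E-box and 1 TGACGT, and the Sf3b1 window had 2 GC boxes and no other match. GC box matches can overlap one another, as in runs such as CCGCCCGCCC, and no motif was shared by all 4 windows.

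Over all 75 windows, the ETS core was present in 20 (26.7%), against 13.1% of 9097 windows of the genes tested and 6.91% of all 32851 windows in the table. TGACGT was found in 14 (18.7%, against 9.85% and 6.47%), the CCAAT box in 35 (46.7%, against 34.8% and 33.8%) and the GC box in 48 (64%, against 56.2% and 32.7%). The E-box (9.33%, against 8.3% and 6.02%) and the TATA box (6.67%, against 6.94% and 12.4%) were about as frequent as in the genes tested. Median GC content was 60.8% in the splicing factor windows and 59.6% in those of tested genes. Windows of 1 gene can overlap, no test was made, and a match describes letters only.

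SR proteins carry an RNA recognition motif and a tail rich in serine and arginine, and most bind exonic enhancers. All 7 of those tested had a change above 0 (the count was 6 under each of the 3 other scalings and 6 without the array of controls 3 and 4). Their median was 0.52, which is 0.41 above the median of all features and the highest of the 4 classes. With the mean of each gene's probes it was 0.219 (0.127 above all features), and under cyclic loess 0.297 (0.31 above). Of the 7, 1 was called higher and 4 had an unadjusted p under 0.05 in that direction (1.28% and 10.4% of all features). Srsf4 had 2 values in each group and Tra2a had none, so neither was tested, and SR genes without a probe of their own symbol were not analysed here.

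Srsf2 encodes SC35, an SR protein that binds exonic enhancers and marks nuclear speckles. Its probe ran from 1.11 in control 4 through a median of 1.30 to 1.37 in control 6. In the shear samples it ran from 1.89 in shear 2 through a median of 2.28 to 2.55 in shear 5. The groups did not overlap, controls were tightly placed, and the shear array of replicates 1 and 2 was the lowest of the 3. The change was 0.97 ± 0.21 (SE), a 1.95-fold higher level (limma, adjusted p = 0.0382). This call held in 12 of 31 alternatives, with an adjusted p of 0.00141 to 0.208. It was lost on leaving out any array except that of shear 1 and 2, on leaving out any single sample except control 4, control 6 or shear 2. It was also lost in the fit on array means (adjusted p = 0.132) and under common centring, quantile normalization and cyclic loess.

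A second Srsf2 probe gave a larger difference. Its values were -1.63 to -0.69 in controls, with a median of -1.10, and 0.20 to 1.19 in shear, with a median of 0.53. Again no shear sample reached down to a control, and here the shear array of replicates 3 and 4 was the lowest of the 3. The change was 1.72 ± 0.28, a 3.30-fold higher level (limma over all 21883 probes, adjusted p = 0.00701). Of 29 alternatives this probe was called in 28, the exception being the fit on array means, where the adjusted p was 0.0619 (range 0.000536 to 0.0619 over the 29).

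Srsf1, among the first SR proteins described and known for its part in choosing between 5′ splice sites, had control values of 1.41 to 2.12, with a median of 1.84. The shear values were 1.80 to 2.96, with a median of 2.69. Only shear 2 fell within the control range. The difference of 0.77 ± 0.31 did not pass the test (limma, adjusted p = 0.279). Its other 2 probes gave 0.26 ± 0.25 and -0.37 ± 0.67, and the last had controls 5 and 6 at 3.40 and 2.90 while the other 4 controls were between -0.78 and 0.21.

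Srsf3, a small SR protein with roles in splicing and in mRNA export, was tested with 4 of its 5 probes, whose changes were all positive, from 0.71 to 0.92, and the remaining probe had values in 2 controls and in no shear sample. The probe that stands for the gene had controls from 2.81 to 3.83, with a median of 3.39, and shear samples from 3.68 to 4.40, with a median of 4.12. The groups overlapped through control 1 and shear 2 alone. Its change of 0.71 ± 0.29 did not pass the test (limma, adjusted p = 0.291). The other 3 gave 0.92 ± 0.34, 0.74 ± 0.37 and 0.73 ± 0.23, and their adjusted p over all probes was 0.205, 0.381 and 0.135.

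Tra2b, a partner of SR proteins that binds purine-rich enhancers, had controls from 1.35 to 2.01, with a median of 1.61, and shear samples from 1.95 to 2.39, with a median of 2.22. Controls 5 and 6 lay just above the lowest shear sample. The difference was 0.52 ± 0.22 (limma, adjusted p = 0.312). A dimmer second probe gave -0.27 ± 0.42.

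The remaining SR genes differed by less than their error or close to it. Srsf11 gave 0.38 ± 0.39, and its controls 3 and 4 were at 0.60 and 0.52 while its other controls were at 1.78 to 2.24. Without that array the difference was -0.098. The 4 Srsf11 probes disagreed, from -0.53 ± 0.43 to 0.66 ± 0.37. For Srsf9 the difference was 0.23 ± 0.26. Shear 3 and 4, at 1.79 and 1.46, lay above all its controls, at 0.65 to 1.22, and the other shear samples were at 0.60 to 1.20. Srsf10, a factor whose activity is turned by dephosphorylation under stress, gave 0.12 ± 0.22 (95% interval -0.34 to 0.59), and its 3 probes ranged from 0.06 to 0.12. Centring on common features, quantile normalization and cyclic loess each turned its sign.

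**Figure D2:**
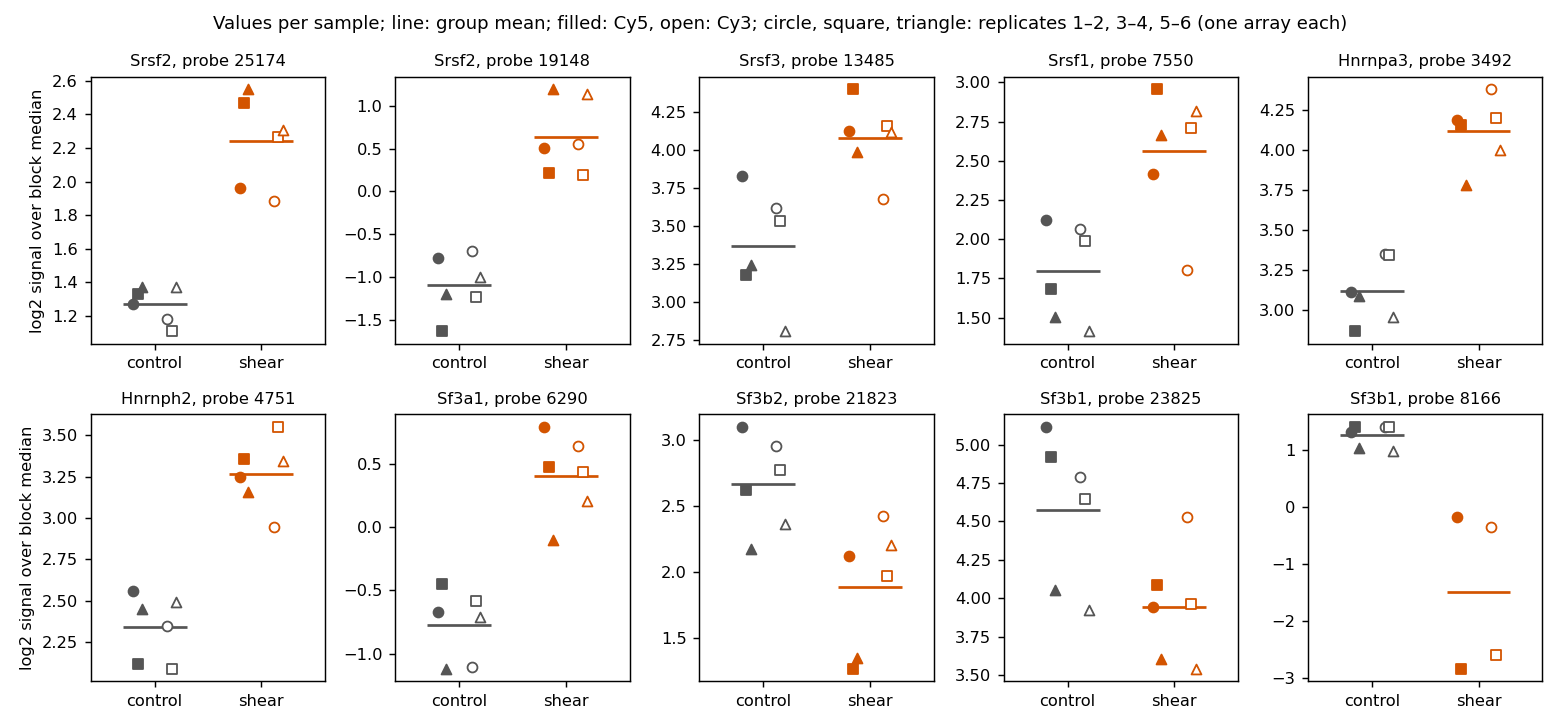
Each panel shows 1 probe, with the log2 signal over the block median of each of the 6 control (grey) and 6 shear (orange) samples on the vertical axis. Lines are group means, filled symbols Cy5, open symbols Cy3, and the 3 shapes mark the arrays inferred from replicate numbers. The groups do not overlap for either Srsf2 probe, for Hnrnpa3, Hnrnph2 and Sf3a1, nor for the Sf3b1 probe on the lower right, which had values in 4 shear samples.

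The hnRNPs coat nascent transcripts, and several repress splice sites. Of 18 tested, 16 had a change above 0, 1 was called higher and 0 lower (61%, 1.28% and 0.205% of all features). Their median was 0.28, which is 0.17 above that of all features, and the range was -0.35 to 1.00. Without the array of controls 3 and 4 the median was 0.23.

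Hnrnpa3, a member of the A/B family that binds RNA and single-stranded telomeric DNA, had controls from 2.87 to 3.35, with a median of 3.10. Shear samples ran from 3.79 to 4.38, with a median of 4.17. Every shear sample was above every control, and shear 5 was the lowest of them. The change was 1.00 ± 0.23, a 1.99-fold higher level (limma, adjusted p = 0.0478). This call held in 7 of 31 alternatives (adjusted p 0.000991 to 0.184) and was lost on leaving out any single array and any single sample other than control 4 or control 5. It was also lost in the fit on array means (adjusted p = 0.11), under common centring, quantile normalization and cyclic loess, with the looser filter, with the mean of its probes and with eBayes trend and robust. A second probe had controls of 1.57 to 2.47 and shear values of 2.51 to 2.87, which did not overlap either, and a change of 0.63 ± 0.25 (adjusted p = 0.246 over all probes). The remaining Hnrnpa3 probe had values in 2 controls and in no shear sample.

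Hnrnph2, which binds runs of guanines near exons, had controls from 2.09 to 2.56, with a median of 2.40, and shear samples from 2.94 to 3.55, with a median of 3.30. The groups did not overlap, though shear 2 lay nearest to the controls. Its change of 0.93 ± 0.24 missed the threshold (limma, adjusted p = 0.0743; 0.00213 to 0.29 over the alternatives, with a call in 2 of 31). The other 2 probes gave 0.88 ± 0.27 and 0.14 ± 0.38.

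Hnrnpd, also known as AUF1 and a binder of AU-rich elements that govern mRNA decay, gave 0.58 ± 0.24 (limma, adjusted p = 0.293). Control 1, at 2.26, was the sample that reached into the shear range of 2.21 to 2.88. Hnrnpab, of the same A/B type, gave 0.53 ± 0.26, with controls 5 and 6 at 2.03 and 1.77 below the other controls and shear 5 and 6 at 3.23 and 3.22 above the other shear samples. For both genes the 2 samples of an array lay closer together than the range of their group.

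At the other end stood Hnrnpa1 and Hnrnpa2b1, well-known repressors of exon inclusion. Hnrnpa1 gave -0.0029 ± 0.35 (95% interval -0.74 to 0.74), with controls from 3.92 to 4.67 and shear samples from 3.48 to 4.99. Shear 3 and 4 were its highest samples and shear 5 and 6 its lowest. Hnrnpa2b1 gave 0.072 ± 0.29, and its 4 probes disagreed, from -1.10 ± 0.90 to 1.22 ± 0.33 (adjusted p over all probes 0.623 and 0.0822). On the highest of these probes controls 3 and 4 were at -0.75 and -1.06, the other controls at 0.37 to 0.58 and the shear samples at 0.96 to 1.53. On the lowest, shear 4 was at -1.97 and shear 3 slightly lower. The other shear samples of that probe were at 2.57 to 3.03 and its controls at 1.24 to 3.13. Hnrnpf, another binder of guanine runs, gave 0.078 ± 0.36, with controls 3 and 4 at -0.95 and -0.74 and the other controls at -0.38 to 0.47. Its sign turned on centring on common features, under loess and without the array of controls 3 and 4. Hnrnpul2, a relative of the scaffold protein Hnrnpu, gave -0.35 ± 0.35, the lowest of the class.

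Hnrnpk, a KH-domain protein that binds cytosine-rich RNA, is given here after its values were seen. Controls 3 and 4 were at 3.63 and 3.79 with the probe that stands for the gene, and the other controls at 1.12 to 1.61, against 1.87 to 2.92 in shear. On the second probe the same 2 controls were the lowest, at -0.40 and -0.80, against 0.77 to 1.14 in the other controls and 1.55 to 2.32 in shear. The changes were 0.29 ± 0.54 and 1.42 ± 0.38 (adjusted p 0.862 and 0.0804 over all probes). So the array of controls 3 and 4 moved in opposite directions on the 2 probes, and the other controls lay below all shear samples on both.

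The snRNP core comprised the Sm and U1 or U2 proteins of the Snrp genes and the Sm-like proteins of the Lsm genes. Because the class follows symbols, it also holds Lsm genes that act outside the spliceosome, such as Lsm14a. Of 18 tested (8 Snrp and 10 Lsm genes), 13 had a change above 0 (72.2%, against 61% of all features). None was called, against 1.28% of all features called higher and 0.205% called lower. Before adjustment 1 had a p under 0.05 in the higher direction and 0 in the lower (10.4% and 3.39% of all features). The median of 0.20 was 0.09 above that of all features, and without the array of controls 3 and 4 it was 0.010. Snrp genes had a median of 0.35 with 7 of 8 above 0, and Lsm genes had 0.029 with 6 of 10. Snrpd1 and Lsm12 had no value in any sample.

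Snrpa encodes the A protein of the U1 snRNP, which binds a loop of its RNA. Controls ran from -1.11 to 0.87, with a median of 0.56, and shear samples from 0.87 to 1.42, with a median of 1.16. Controls 3 and 4 were the 2 low ones, at -1.11 and -0.97, and the other controls were at 0.54 to 0.87. Of these, control 5 at 0.875 lay just above the lowest shear sample, shear 2 at 0.869, and the others lay below it. The difference was 1.04 ± 0.37 (limma, adjusted p = 0.202) and 0.47 without that array. A second Snrpa probe, measured in 4 samples of each group, gave 0.58 ± 0.35.

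Snrpb, the Sm protein B, had values in 4 controls, from 2.35 in control 3 to 4.32 in control 5, and in shear from 3.85 to 4.49. Controls 5 and 6, at 4.32 and 4.03, were within the shear range, and controls 3 and 4, at 2.35 and 2.56, were below it. Without the array of controls 3 and 4 too few controls were left for a test. The change was 0.79 ± 0.42 (limma, adjusted p = 0.443). Snrpg, the Sm protein G, gave 0.44 ± 0.28, with controls at 1.61 to 2.47 and shear samples at 2.15 to 2.61. Snrpc, the U1 protein that contacts the 5′ splice site, gave -0.25 ± 0.34.

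Lsm8 marks the nuclear Lsm ring, which binds the end of U6 RNA, and Lsm6 and Lsm7 also belong to the cytoplasmic ring of mRNA decay. Their differences were 0.39 ± 0.29, -0.20 ± 0.51 and -0.27 ± 0.43. Lsm8 had a second probe, brighter but without values in 2 controls, that gave -0.21 ± 0.38. A second, dimmer Lsm7 probe gave 0.22 ± 0.25. Lsm10, a subunit of the U7 snRNP that processes histone mRNA, was the lowest of the class at -0.47 ± 0.26 (limma, adjusted p = 0.458). Its controls were at -0.18 to -0.04 in 4 samples and at -1.01 and -0.99 in controls 3 and 4, and its shear samples were at -1.25 to -0.62. Without that array the difference was -0.76 (limma, adjusted p = 0.143; 0.458 with it). Lsm14a, a cytoplasmic relative that represses translation, gave 0.24 ± 0.21, but its probes ranged from -1.08 ± 0.85 to 0.24. On the lowest of these probes shear 3 and 4 were at -2.11 and -2.38. The other shear samples of that probe were at 0.12 to 2.01, and its measured controls at 0.92 to 1.41.

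Among SF3, Prpf and U2AF genes 13 of 16 had a change above 0 (81.2%, against 61% of all features). None was called, against 1.28% of all features called higher and 0.205% called lower. In each direction 1 had an unadjusted p under 0.05, as did 10.4% (higher) and 3.39% (lower) of all features. The class median of 0.25 was 0.14 above that of all features. Sf3b4 and Sf3b5 had no value in any sample. The SF3 genes held both the highest and the lowest changes among all 59 splicing factors, Sf3a1 at 1.18 and Sf3b2 at -0.78.

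Sf3a1, a U2 snRNP subunit needed for the early spliceosome, had controls from -1.12 to -0.45, with a median of -0.69. Shear samples ran from -0.11 to 0.79, with a median of 0.45. The groups did not overlap, and shear 5 lay nearest to the controls. Its change of 1.18 ± 0.29 was 2.26-fold and missed the threshold (limma, adjusted p = 0.0644; 0.00177 to 0.216 over the alternatives, with a call in 2 of 31). A second probe, with values in 4 samples of each group, gave 0.19 ± 0.35.

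Sf3b1, the branch point subunit that is often mutated in blood cancers, had 5 tested probes, and all 5 gave a change below 0. On the probe that stands for the gene, controls ran from 3.92 to 5.12, with a median of 4.72, and shear samples from 3.54 to 4.53, with a median of 3.95. Controls 5 and 6 were within the shear range and the other 4 controls were above it. The difference was -0.63 ± 0.33 (limma, adjusted p = 0.429). Of the others, 3 gave -0.10 to -0.27, each about as large as its error or smaller.

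The fifth Sf3b1 probe had 6 controls between 0.98 and 1.41. In shear it read -0.17 and -0.35 in replicates 1 and 2 and -2.83 and -2.59 in replicates 3 and 4, with no value in replicates 5 and 6. All 4 measured shear samples were below all controls, and the 2 arrays differed from each other by more than the first differed from the controls. Its level fell by 2.74 ± 0.51 on the log2 scale (limma over all probes, adjusted p = 0.0225). The values of shear 3 and 4 lie in the range of the samples' 5th percentiles, -2.87 to -2.18, where a signal above background is not shown, so the size of the change is uncertain and no fold is given. It was called in 18 of 22 alternatives (adjusted p 0.0053 to 0.113) and lost its call without any 1 of the control arrays (0.0739, 0.0652 and 0.0599) and in the fit on array means. Leaving out any of the 4 measured shear samples, or either of their arrays, left too few values for a test. Those fits are not among the 22, so dependence on single shear samples could not be examined. This probe was the sole one of the 116 tested called lower.

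Sf3b2, which binds the pre-mRNA near the branch point, had controls from 2.18 to 3.10, with a median of 2.70, and shear samples from 1.27 to 2.42, with a median of 2.05. Controls 5 and 6 were the lowest controls and overlapped the shear samples. The difference was -0.78 ± 0.33 (limma, adjusted p = 0.312), while a second probe gave 0.09 ± 0.28. Sf3b3, named here after its values were seen, had 5 tested probes that were all above 0, from 0.26 ± 0.33 to 1.32 ± 0.48, and none was called. So all 5 tested probes of Sf3b1 lay below 0 and all 5 of Sf3b3 above it, while those of Sf3b2, of the same complex, lay on both sides. The differences between these genes were not tested.

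The Prpf genes had smaller changes. Prpf19, a ubiquitin ligase at the centre of the complex that activates the spliceosome, gave 0.47 ± 0.22 (limma, adjusted p = 0.374), with controls at 2.35 to 2.85 and shear samples at 2.80 to 3.40. Shear 6 and shear 2 were the lowest of its shear samples and lay near the highest control. Prpf38a and Prpf38b, needed to activate the assembled spliceosome, gave 0.37 ± 0.24 and 0.31 ± 0.20. Prpf39, a U1-associated protein, gave 0.047 ± 0.35 with values in 4 controls, and Prpf8, which holds the catalytic RNAs in place, gave -0.072 ± 0.30. Prpf genes ranged from -0.072 to 0.47, and the class of SF3, Prpf and U2AF as a whole from -0.78 to 1.18.

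**Figure D3:**
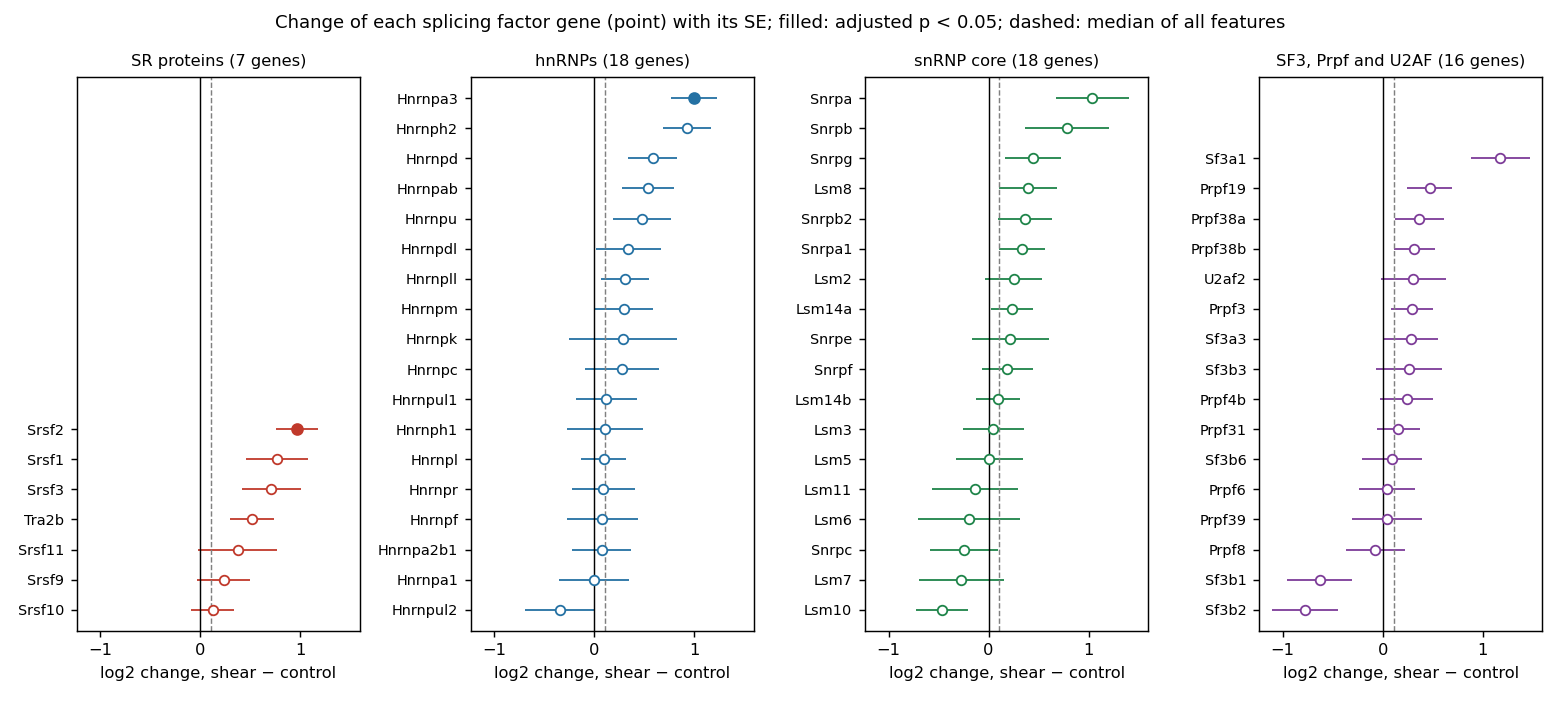
The log2 change (horizontal axis, shear minus control) of each of the 59 genes tested, with its SE, in 4 panels by class. Filled points passed an adjusted p of 0.05, which Srsf2 and Hnrnpa3 did, and the dashed line is the median of all features, 0.11.

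Probes of 1 gene measure the same RNA and are not independent samples. Of 35 splicing factor genes with 2 or more tested probes, 24 had every probe on the same side of 0 (68.6%, against 57.4% of 4049 genes on the array). In 3 genes, Srsf11, Hnrnpa2b1 and Lsm14a, probes of opposite sign were each more than 1 SE from 0 (8.57%, against 7.83%). For Hnrnpa2b1 and Lsm14a, the probe below 0 had shear 3 and 4 far below the other shear samples. The part of that array in the disagreement was not tested. Over the 116 probes tested, 88 had a change above 0 (75.9%, against 60% of all probes). By class these were 15 of 19 SR probes, 29 of 37 hnRNP probes, 21 of 28 probes of the snRNP core and 23 of 32 of SF3, Prpf and U2AF. As single probes 3 were called higher, both Srsf2 probes and 1 of Hnrnpa3, and 1 lower (1.42% and 0.201% of all probes).

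**Figure D4:**
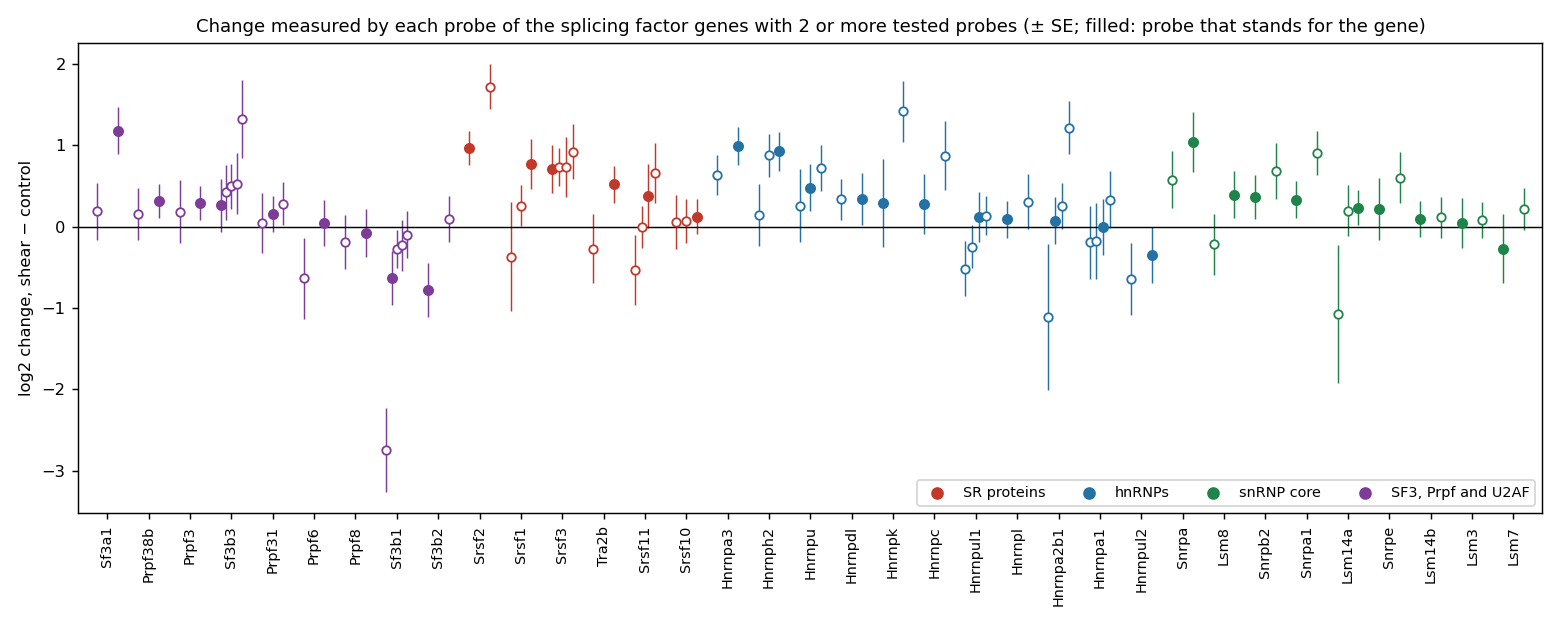
The log2 change, shear minus control, with its SE (vertical axis) of every tested probe of the 35 genes with 2 or more, coloured by class. Filled points are the probes that stand for their gene, and the lowest point is the Sf3b1 probe at -2.74.

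Each sample's position was summarised for a class by the median deviation of its values from the gene means. For SR proteins this was -0.44 to -0.06 in controls and 0.13 to 0.68 in shear, and the groups did not overlap. For hnRNPs it was -0.41 to 0.08 in controls and 0.06 to 0.23 in shear, with control 1 inside the shear range. The snRNP core overlapped more, at -0.44 to 0.27 and -0.06 to 0.32. Over all features, controls were at -0.37 to 0.11 and shear at -0.04 to 0.15, and control 4 was the lowest. These medians have no test, since genes are not replicates and the families were picked for study with earlier results of these samples known.

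**Figure D5:**
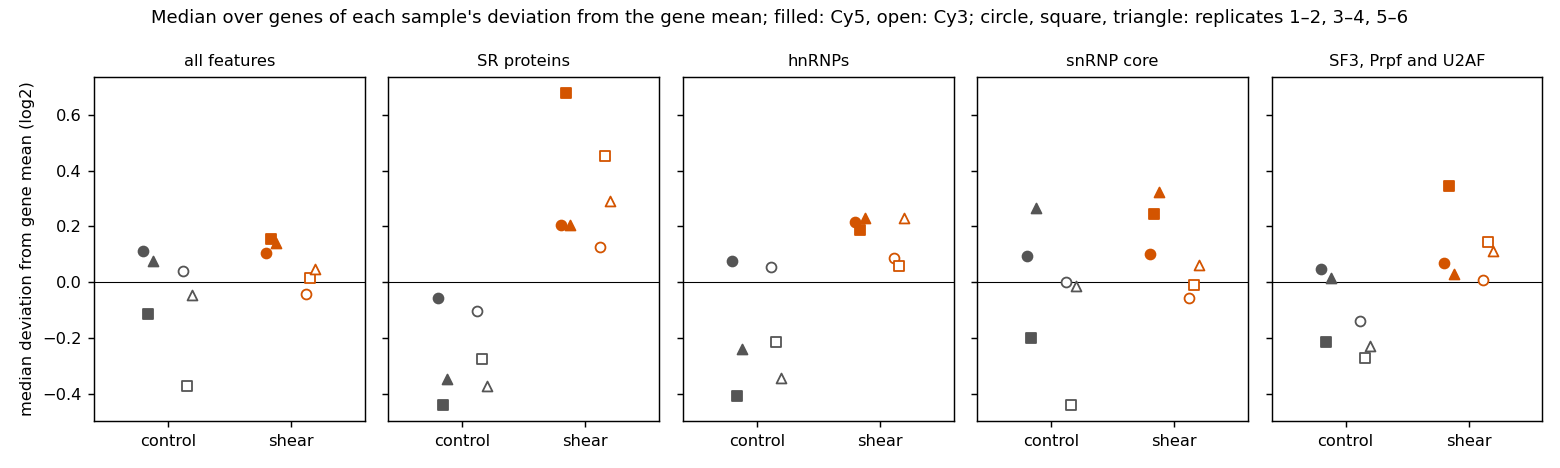
The median over genes of each sample's deviation from the gene mean (vertical axis, log2) for all features and for the 4 classes, by group. Filled symbols are Cy5, open symbols Cy3, and shapes mark arrays. SR proteins separate the groups, while controls 3 and 4, the squares, lie low in all features.

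Other genes of the splicing pathway were taken from a list of 143, of which 108 were tested. Of these 72 had a change above 0 (66.7%, against 61% of all features), 1 was called higher and 0 lower (limma; 1.28% and 0.205% of all features). Before adjustment 16 had a p under 0.05 in the higher direction and 0 in the lower (10.4% and 3.39% of all features). Their median was 0.22. The genes of snRNP assembly, which load Sm rings onto small nuclear RNAs, had a median of 0.46 with 10 of 12 above 0. Those of the remaining core had 0.16 with 23 of 38, of the exon junction complex and mRNA export 0.24 with 11 of 15, of other regulators 0.25 with 23 of 36, and of the kinases that phosphorylate SR proteins 0.17 with 5 of 7.

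The called gene was Wdr77, the partner of the methyltransferase Prmt5 that modifies Sm proteins. It had values in 4 controls, from -1.64 to -1.16, and in shear from -0.11 to 1.21. The groups did not overlap. The change was 2.13 ± 0.46, a 4.38-fold higher level (limma, adjusted p = 0.0439). It was called in 15 of 24 alternatives (adjusted p 0.000518 to 0.215). The call was lost without the shear array of replicates 3 and 4 or that of 5 and 6. It was also lost without any single one of control 3, control 4 and shear 3 to 6. Controls 3 and 4 had no value for this gene. Leaving out any control with a value, or its array, left too few values for a test. Those fits are not among the 24. Coil, the scaffold of Cajal bodies where snRNPs mature, gave 1.71 ± 0.82, and Gemin8, of the complex that assembles Sm rings, gave 1.54 ± 0.38 (limma, adjusted p = 0.386 and 0.0907). The lowest were Cwc22 at -0.65 ± 0.62, Rbm10 at -0.55 ± 0.32 and the helicase Snrnp200 at -0.51 ± 0.29, none of which passed the test.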

How the data were processed

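Total RNA of 12 samples was copied into Cy5 or Cy3 cDNA, per the labels' protocols, and read on 6 spotted 2-colour arrays. The deposited values are log2 values made by the authors; in every one of 576 combinations of block and sample they were the log2 of a whole-number signal over the median of a block of 598 features. How the background was corrected, and why some spots lack a value, is not given in the sources used here. A change common to all genes cannot be seen on this scale, and the number of arrays limits the precision.

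Genes were named from GEO's platform annotation (1 symbol for 18511 probes, several for 937, none for 9256), with 18267 symbols updated by Entrez number. A feature needed values in 4 of 6 samples of each group. A gene was represented by a probe that passed this filter, then by the one measured in most samples, then by the highest mean, which left 15603 features. The fit used R 4.3.3 and limma 3.58.1 (lmFit, eBayes) on group and dye, with arrays as random blocks (duplicateCorrelation, 0.736), with Benjamini-Hochberg adjustment over all features. Because an array holds 1 group, the comparison rests on 3 arrays a group although limma counts 12 samples, so p-values can be too small. Tested on simulated data with 100 genes changed at each size, the fit recovered 28% of changes of 1 and 87% of changes of 2.

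Named are the genes called, the 4 highest and 4 lowest of each class, the 3 highest and 3 lowest other splicing genes, and genes whose probes disagree. The members and lists were chosen with earlier results of these data known. Figures and motif searches used Python 3.11.15 with numpy 2.4.6, pandas 2.3.3 and matplotlib 3.10.9. 32 alternatives were run, of the block, dye, scaling, filter, probe choice, variance model and samples left out.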

Additional observations from a re-analysis of the deposited data

Results flagged for a closer look

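Within the 6 samples of a group, 3 of 68 groups of values had an end sample whose gap to its nearest neighbour was large for the group's range. Chance would flag about 1 in 20 if samples were independent, but they come in array pairs. The rule does not flag an array whose 2 samples lie apart together, such as controls 3 and 4 in Snrpa. Hnrnpul2 had its lowest control in control 4, at -0.415 against 0.444 in the next. Prpf38b had its highest control in control 6, at 1.88 against 1.74 in the next. Shear 2 had a value for the fewest features of its group, 21847 against 23039 in the next.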

How the results depend on the processing

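Of 32 alternatives, the count of all features called was 232 as reported, 72 with each array averaged, 1717 with no array block, 366 with no dye term, 133 under quantile normalization and 354 with every probe as its own feature. Splicing factor genes called numbered 2, but 0 on array means, 10 with no array block, 4 with no dye term, 0 when centred on features measured in all samples, 0 under quantile normalization, 0 under cyclic loess, and 1 with a value in 2 of 6 samples, with the mean of a gene's probes, or with eBayes trend and robust. Splicing factor probes called numbered 4, but 0, 21, 7, 2, 2 and 2 for array means, no array block, no dye term, common centring, quantile and loess. Other splicing genes called numbered 1, but 15 with no array block, 3 with no dye term, 0 with a value in all 12 samples, 2 with the mean of probes and 3 with every probe. With the replicate block these 4 counts were 100, 0, 2 and 0; same-numbered samples correlated at -0.087 to 0.0984 in their deviations and only replicate 1 matched its own number best, so the numbers share a name only. Among features called, 86.2% were higher (200 of 232), but 68.6% when centred on common features (164 higher, 75 lower), 69% under loess (165 and 74) and 70.1% without controls 3 and 4 (103 and 44). Median changes moved under common centring to 0.117 (all splicing factors) and 0.115 (SF3, Prpf and U2AF), under loess to 0.0638 (all), 0.0771 (hnRNPs), 0.064 (SF3, Prpf and U2AF), -0.0238 (snRNP core) and 0.297 (SR proteins), and with the mean of probes to 0.219 (SR proteins). The median of SR proteins minus that of all features stayed positive in all 32, at 0.127 to 0.46; for hnRNPs it was 0.0446 to 0.23, for SF3, Prpf and U2AF 0.0523 to 0.187, and for the snRNP core -0.0109 to 0.133. Leaving out a sample or an array gave 41 (shear 3 and 4) to 235 features called, 0 to 2 splicing factor genes, 1 to 4 of their probes and 0 to 2 other splicing genes. Uncalled genes that changed sign were Srsf10 (-0.012, -0.046 and -0.108 under common centring, quantile and loess), Hnrnpf (-0.058 and -0.027 under common centring and loess), Hnrnpa2b1 (-0.064, -0.0071 and -0.136 in that order), Lsm8 (-0.21 with the brightest probe) and Lsm14a (-0.29 with the mean of probes). Leaving out a sample or an array gave ranges of -0.27 to 0.35 for Prpf39, -0.20 to 0.0503 for Prpf8, -0.098 to 0.68 for Srsf11, -0.012 to 0.44 for Srsf9, -0.21 to 0.23 for Hnrnpf, -0.0898 to 0.22 for Hnrnpa2b1, -0.33 to 0.39 for Hnrnpa1, -0.21 to 0.47 for Lsm8, -0.42 to 0.0502 for Lsm6, -0.68 to 0.15 for Lsm7, -1.24 to 0.28 for Cwc22 and -0.041 to 0.36 for Lsm14a. Where a value changed, the cause was not tested.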
